A study of Mus musculus with 6 samples.

Results

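The levels of 9 genes that code for regulators of messenger RNA decay were examined: the AU-rich element decay genes Zfp36, Zfp36l1 and Zfp36l2, the Regnase and Roquin genes Zc3h12a and Rc3h1, and the BTG/TOB genes Btg1, Btg2, Tob1 and Tob2. They were taken by symbol, which gave 9 of the 53465 genes of the expression table, or of the 27982 with at least 1 count. All 9 were among the 15533 genes that passed the filter on low counts. RNA was sequenced from mouse bone marrow cells sorted with the gate for long-term stem cells of the blood (LT-HSCs), the rarely dividing cells that sustain all blood lineages. The carnosine group (3 libraries) came from wild-type mice given carnosine (beta-alanyl-histidine, a natural dipeptide) after 5.0 Gy of radiation to the whole body. The saline group (3 libraries) came from wild-type mice that received saline after the same 5.0 Gy, so both groups were irradiated and no unirradiated library was part of the comparison. The sources used here do not give the age or sex of the mice, the dose of carnosine or the time of sampling. The labels do not tell whether the libraries of a group are separate mice, and p-values therefore measure only how far these libraries spread, which may be a technical spread.

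A messenger RNA is usually degraded after its poly(A) tail has been shortened, and the CCR4-NOT complex does most of that shortening. ZFP36 proteins bind AU-rich elements in 3′ untranslated regions (3′ UTRs) and bring CCR4-NOT to the message, Regnase-1 (encoded by Zc3h12a) is an endonuclease that cuts stem-loops in inflammatory messages, and Roquin-1 (encoded by Rc3h1) binds similar stem-loops and recruits deadenylases. BTG and TOB proteins bind the deadenylase subunits of CCR4-NOT and were first known as antiproliferative proteins. In blood-forming cells Zfp36l1 and Zfp36l2 are needed in lymphocyte development, Zfp36l2 is also needed for definitive haematopoiesis, and Zc3h12a restrains the activation of stem cells.

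The core AU-rich element bound by ZFP36 proteins is the nonamer TTATTTATT in DNA letters. It was present once in the annotated 3′ UTR of 4 of the 9 genes, the 3 ZFP36 genes and Rc3h1, while 7.01% of the 12104 tested genes with an annotated 3′ UTR had at least 1 copy. The median 3′ UTR of those 12104 genes had 953 bases, shorter than that of Zfp36l1, Zfp36l2 and Rc3h1, and the share was not adjusted for length. The copies in the 4 genes are shown because the letters are those that the products of 3 of the genes are known to bind. Each line gives 25 bases of the message strand, from the GENCODE M21 transcripts of GRCm38, with the nonamer in capitals.
Zfp36: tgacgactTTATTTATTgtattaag
Zfp36l1: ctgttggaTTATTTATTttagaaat
Zfp36l2: tatttaacTTATTTATTatcttgtg
Rc3h1: tttactcaTTATTTATTgagatgag
They lie in the 3′ UTR at chr7:28376953-28376977 (minus strand), chr12:80108169-80108193 (minus strand), chr17:84184916-84184940 (minus strand) and chr1:160970045-160970069 (plus strand). The nonamer itself starts at base 589 of 774 in the Zfp36 3′ UTR, 1404 of 1835 in Zfp36l1, 821 of 1822 in Zfp36l2 and 2256 of 7181 in Rc3h1. A match is a run of letters and not a measured binding site. The 5 others had 0 copies, in 3′ UTRs of 4166 bases for Btg1, 2199 for Btg2, 767 for Tob1, 2457 for Tob2 and 856 for Zc3h12a. The shorter pentamer ATTTA was in all 9, from 3 copies in Zfp36, Tob1 and Zc3h12a to 20 in the long 3′ UTR of Rc3h1.

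In cells of carnosine-treated mice 8 of the 9 transcripts were lower than in cells of saline-treated mice, 0 were higher, and Zfp36l1 did not pass the test. The median log2 fold change of the 9 was -0.81, with a range from -2.02 to -0.40, beside a median of 0.00 over all tested genes. Of all tested genes 19.8% were lower and 19.6% were higher (edgeR's quasi-likelihood test over 15533 genes, threshold 0.05 on the p adjusted by Benjamini-Hochberg). For the 8 lower genes every carnosine library was below every saline library, a separation that 26.1% of all tested genes showed in that direction. Levels are given in CPM, read counts scaled to a common library size by the trimmed mean of M-values (TMM). In a bulk library fewer cells that express a gene and less RNA per cell cannot be told apart.

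**Figure D1:**
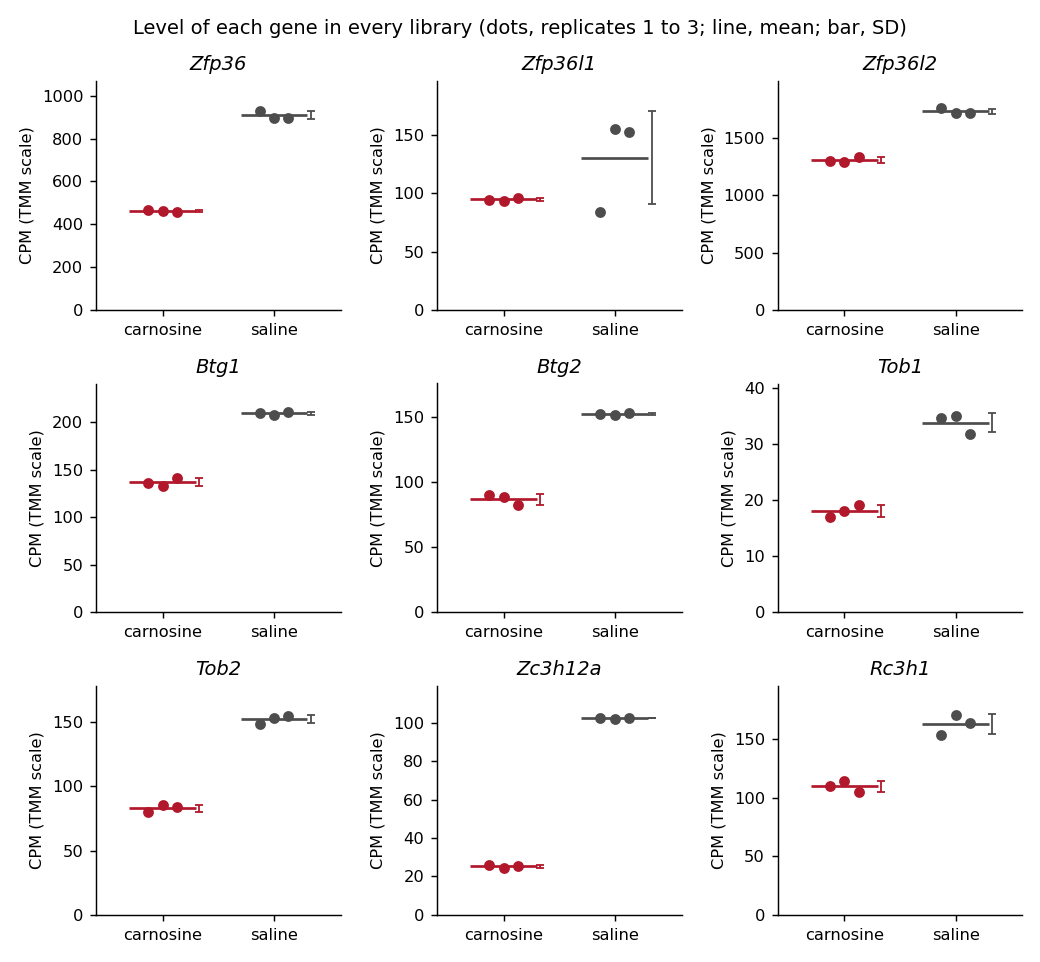
Level of each of the 9 genes in every library, in CPM on the TMM scale (y axes start at 0), for carnosine (red, left) and saline (grey, right); dots are replicates 1 to 3, the line is their mean and the bar their SD. The carnosine dots lie below the saline dots in every panel except Zfp36l1, where saline replicate 1 (84.2 CPM) lies under the 3 carnosine libraries.

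Zfp36 (ENSMUSG00000044786, chr7:28376784-28380253, minus strand) codes for tristetraprolin, the founding member of the AU-rich element decay proteins. It had 465, 462 and 457 CPM in the carnosine libraries, against 930.1, 896 and 898 CPM in the saline libraries. The groups did not overlap and each was narrow, with an SD of 4.05 CPM for carnosine and 19.0 CPM for saline (n = 3 each). The carnosine level was 0.508 times the saline level, a log2 fold change of -0.98 ± 0.023 (SE; edgeR adjusted p = 3.56e-07).

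Zfp36l2 (ENSMUSG00000045817, chr17:84183931-84187947, minus strand) was by far the most abundant of the 9 transcripts. It had 1296, 1290.4 and 1333 CPM with carnosine, against 1756, 1716 and 1713 CPM with saline. The groups did not overlap, but the difference was the smallest among the 8 that passed, at -0.40 ± 0.022 on the log2 scale (edgeR adjusted p = 1.41e-05), and the carnosine level was 0.756 times the saline level.

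Zfp36l1 (ENSMUSG00000021127, chr12:80107754-80113013, minus strand) was the one gene whose groups overlapped. It had 94.6, 93.7 and 95.8 CPM in the carnosine libraries, against 84.2, 155 and 152 CPM in the saline libraries. Saline replicate 1 had 0.547 times the mean of the other 2 saline libraries. Among 4854 genes with at least 50 CPM in the saline group, 17 (Zfp36l1 itself included) were as low or lower in that library by this ratio and 8 were as far above. With all 6 libraries the log2 fold change was -0.46 ± 0.21 (edgeR adjusted p = 0.127), and without saline replicate 1 it was -0.70 (edgeR adjusted p = 5.51e-05), so that 9 of 9 genes were then lower. The call for Zfp36l1 is therefore decided by 1 library. A long non-coding gene on the opposite strand, Gm26669, held at most 2.37% of the counts of the pair.

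Zc3h12a (ENSMUSG00000042677, chr4:125118423-125127840, minus strand), the Regnase-1 gene, showed the widest difference of the 9. It had 26.0, 24.4 and 25.3 CPM in the carnosine libraries, against 102, 102 and 102 CPM in the saline libraries. Neither group varied by more than a few CPM and they lay far apart, at 0.247 times the saline level with carnosine (log2 fold change -2.02 ± 0.044; edgeR adjusted p = 2.33e-07). Only 135 of the 15533 tested genes had a lower log2 fold change.

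Rc3h1 (ENSMUSG00000040423, chr1:160906418-160974978, plus strand), the Roquin-1 gene, differed less. It had 109.9, 114 and 105 CPM with carnosine, against 153, 170.3 and 164 CPM with saline. Saline replicate 1 was the lowest of its group, and it was still above all carnosine libraries. The log2 fold change was -0.57 ± 0.049 (edgeR adjusted p = 0.000128). Its counts could be shared with the overlapping unconfirmed transcripts Gm37052, Gm37809 and Gm37653 by at most 0.442% for any one of them.

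Among the BTG/TOB genes, Btg2 (ENSMUSG00000020423, chr1:134075170-134079120, minus strand) is known as an immediate early and p53-responsive gene. It had 90.0, 88.3 and 82.1 CPM in the carnosine libraries, against 152, 151 and 153 CPM in the saline libraries. No carnosine library came near the saline range, and the log2 fold change was -0.81 ± 0.040 (edgeR adjusted p = 9.63e-06). Btg1 (ENSMUSG00000036478, chr10:96617006-96622809, plus strand), which is linked to quiescence of lymphocytes, had 137, 133 and 142 CPM with carnosine, against 210.0, 208 and 211 CPM with saline. That was the smallest change of the 4 genes, at -0.61 ± 0.031 on the log2 scale (edgeR adjusted p = 1.02e-05).

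The TOB genes code for longer proteins that also carry a site for the poly(A)-binding protein. Tob1 (ENSMUSG00000037573, chr11:94211454-94215495, plus strand) had 16.97, 18.1 and 19.2 CPM in the carnosine libraries, against 34.7, 34.99 and 31.9 CPM in the saline libraries. Tob2 (ENSMUSG00000048546, chr15:81848270-81858326, minus strand, as the deposited table gives it) had 80.2, 85.4 and 83.5 CPM with carnosine, against 149, 153 and 154 CPM with saline. Both were without overlap and changed by a like amount, with log2 fold changes of -0.90 ± 0.071 for Tob1 (edgeR adjusted p = 8.64e-05) and -0.87 ± 0.036 for Tob2 (edgeR adjusted p = 3.81e-06). Tob1 was the scarcest of the 9 by read count, with 236 to 251 counts per carnosine library and 393 to 572 per saline library, and its error was the widest after that of Zfp36l1.

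**Figure D2:**
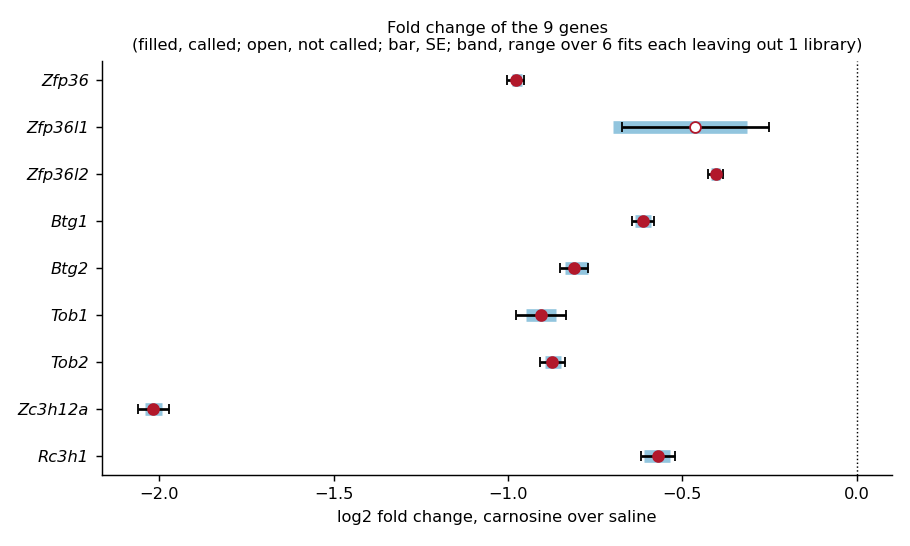
log2 fold change of the 9 genes, carnosine over saline (x axis), with the SE as bars and, as a band, the range over 6 fits that each left out 1 library. Filled points passed the test, Zfp36l1 (open) did not; Zc3h12a stands apart at -2.02 and the other 7 filled points lie between -0.98 and -0.40.

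Levels of different genes were compared on the deposited FPKM scale, which divides by a length per gene that is not stated. For Zfp36 and Zfp36l1 the length that counts and FPKM imply is longer than the whole gene as placed above. For Zfp36l2, Btg2 and Tob1 it is that of the annotated transcript. A longer length lowers FPKM, so the places and shares of Zfp36 and Zfp36l1 beside other genes hold only on this scale. Zfp36l2 was the highest in both groups, with a mean of 377 ± 6.34 FPKM under carnosine and 479 ± 6.66 FPKM under saline (SD, n = 3 each). Zfp36 followed with 89.3 ± 0.863 FPKM under carnosine and 169 ± 3.48 FPKM under saline. Below them came, with carnosine, Btg2 at 32.2 ± 1.57, Btg1 at 24.6 ± 0.783, Tob2 at 21.2 ± 0.670, Zfp36l1 at 16.7 ± 0.178, Rc3h1 at 9.06 ± 0.377, Zc3h12a at 8.36 ± 0.278 and Tob1 at 8.05 ± 0.496 FPKM (SD, n = 3 each). Within the carnosine group only the neighbours Zc3h12a and Tob1 overlapped in this order. With saline the order below Zfp36 was Btg2 at 54.3 ± 0.231, Tob2 at 37.3 ± 0.750, Btg1 at 36.2 ± 0.192, Zc3h12a at 32.6 ± 0.0236, Zfp36l1 at 22.2 ± 6.84, Tob1 at 14.5 ± 0.743 and Rc3h1 at 12.9 ± 0.687 FPKM, and only Zfp36l1 and Tob1 overlapped. On this scale Zc3h12a thus stood sixth in saline cells, ahead of Zfp36l1, Tob1 and Rc3h1, and next to last in carnosine cells.

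Shares within the families were compared on the same scale, so the size of the ZFP36 shares depends on those implied lengths. The 3 ZFP36 genes summed to 483 ± 5.77 FPKM with carnosine and 670.4 ± 3.63 FPKM with saline (SD, n = 3 each). Zfp36 made up 18.5 ± 0.380% of that sum in carnosine libraries and 25.2 ± 0.400% in saline libraries, while Zfp36l2 made up 78.0 ± 0.389% in carnosine libraries and 71.5 ± 0.634% in saline libraries. Both shares separated the groups (exact two-sided permutation p = 0.10, the smallest value that 3 against 3 libraries allow), so that no such test can pass 0.05 here. The share of Zfp36l1 overlapped, at 3.47 ± 0.0116% with carnosine and 3.31 ± 1.03% with saline (exact permutation p = 1.0). Zc3h12a made up 48.0 ± 1.61% of the summed FPKM of Zc3h12a and Rc3h1 with carnosine and 71.6 ± 1.08% with saline (exact permutation p = 0.10). The log2 ratio of Zc3h12a to Rc3h1 in CPM was accordingly lower by 1.45 with carnosine, at -2.12 ± 0.093 for carnosine against -0.67 ± 0.077 for saline (SD, n = 3 each; exact permutation p = 0.10, and 0.133 after Benjamini-Hochberg adjustment over the 8 gene pairs compared).

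Among the BTG/TOB genes some proportions overlapped between the groups. The sum of the 4 was 86.0 ± 0.404 FPKM in carnosine libraries and 142 ± 0.449 FPKM in saline libraries. The share of Btg2 was 37.4 ± 1.72% with carnosine and 38.2 ± 0.238% with saline, and the groups overlapped (exact permutation p = 0.80). Btg1 held 28.6 ± 1.04% with carnosine and 25.4 ± 0.195% with saline, without overlap (exact permutation p = 0.10). Tob2 held 24.6 ± 0.727% with carnosine and 26.2 ± 0.459% with saline, also without overlap (exact permutation p = 0.10), and Tob1 held 9.36 ± 0.597% with carnosine and 10.2 ± 0.523% with saline, with overlap (exact permutation p = 0.20). The log2 ratio of Tob1 to Tob2 overlapped between groups, with a difference of -0.03 (exact permutation p = 0.90, 1.0 after adjustment).

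**Figure D3:**
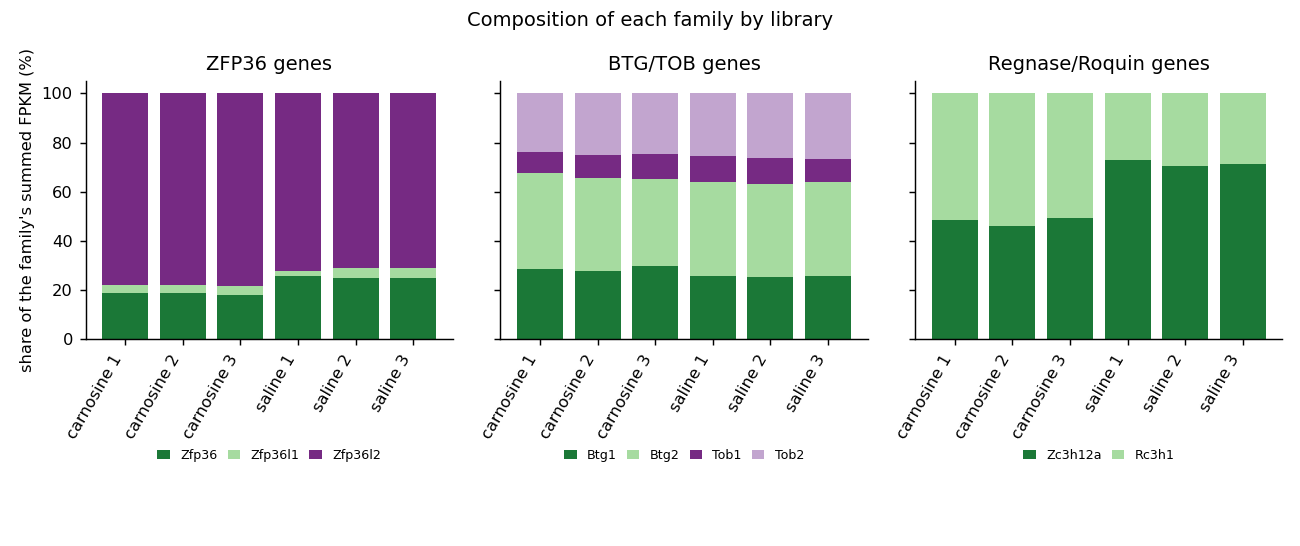
Share of each gene in the summed FPKM of its family (y axis, %), 1 bar per library with carnosine left and saline right. In the right panel Zc3h12a takes 46.2% to 49.2% of its pair in carnosine libraries and 70.6% to 72.7% in saline libraries, while Btg2 takes 35.5% to 38.9% of its family in carnosine libraries and 37.9% to 38.3% in saline libraries.

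Other genes of the same families were looked up as well. Of 8 further Regnase, Roquin, BTG and ZFP36 genes 6 were tested, 1 was higher and 2 were lower. Of all tested genes 19.6% were higher and 19.8% lower, and 6 genes are too few to set against these shares. Zc3h12d, a paralogue of Zc3h12a, was higher at 5.73 ± 0.549 CPM with carnosine against 2.84 ± 0.0747 CPM with saline (log2 fold change 1.01 ± 0.13; edgeR adjusted p = 0.000795). Btg3 was lower at 4.65 ± 1.10 CPM with carnosine against 9.07 ± 1.14 CPM with saline (log2 fold change -0.96 ± 0.19; edgeR adjusted p = 0.00603). Zc3h12c was also lower, by a smaller step (log2 fold change -0.36 ± 0.077; edgeR adjusted p = 0.0095), and did not pass when FPKM values were tested in place of counts (limma-trend adjusted p = 0.0681). Zc3h12b, at 1.85 ± 0.421 CPM with carnosine and 2.20 ± 0.187 CPM with saline, did not pass (edgeR adjusted p = 0.366). Rc3h2, the Roquin-2 gene, had 46.5 ± 0.918 CPM with carnosine and 45.0 ± 4.83 CPM with saline (edgeR adjusted p = 0.664), while Zfp36l3 was too scarce to test and Btg4 had 0 counts in every library.

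Genes for the enzymes that these regulators recruit differed in both directions, where 19.6% of all tested genes were higher and 19.8% lower. Of 15 genes of the CCR4-NOT and PAN2-PAN3 deadenylases and the poly(A)-binding proteins, 3 were higher and 2 lower, with a median log2 fold change of 0.03. The higher ones were Cnot3 (0.17 ± 0.034 on the log2 scale; edgeR adjusted p = 0.00753), Cnot4 (0.26 ± 0.053; edgeR adjusted p = 0.00752) and the catalytic subunit gene Cnot8 (0.26 ± 0.055; edgeR adjusted p = 0.00945). The scaffold gene Cnot1 was lower at 416 ± 6.61 CPM with carnosine against 444 ± 11.5 CPM with saline (edgeR adjusted p = 0.0317), and Pan3, with overlapping groups, was the other lower gene (edgeR adjusted p = 0.0354). The count of lower genes in this list ran from 0 to 3 over the alternatives, and Cnot1 did not pass in 8 of 15 of them. Of 14 decapping genes 2 were higher and 2 lower: the decapping enzyme gene Dcp2 (log2 fold change 0.26 ± 0.047; edgeR adjusted p = 0.00423) and Dcp1b (0.38 ± 0.069; edgeR adjusted p = 0.00445) were higher, the helicase gene Ddx6 (-0.35 ± 0.034; edgeR adjusted p = 0.000248) and Lsm3 (-0.20 ± 0.042; edgeR adjusted p = 0.0088) were lower.

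The exosome and its SKI partner, which degrade messages from the 3′ end, had 4 of 14 genes higher and 0 lower, with a median log2 fold change of 0.10. Ttc37 was the clearest at 70.6 ± 1.06 CPM with carnosine against 61.4 ± 0.183 CPM with saline (edgeR adjusted p = 0.00571). Exosc7, Exosc8 and Wdr61 passed narrowly (edgeR adjusted p = 0.0265, 0.0416 and 0.0413) and each failed in at least 5 of the 15 alternatives, which gave counts from 1 to 7. Of 6 genes listed for other proteins that bind AU-rich elements 3 were higher and 0 lower, beside 19.6% higher and 19.8% lower of all tested genes. The higher ones were Tial1 (log2 fold change 0.21 ± 0.041; edgeR adjusted p = 0.00678), Tia1 (0.23 ± 0.056; edgeR adjusted p = 0.0167) and Celf1 (0.18 ± 0.058; edgeR adjusted p = 0.0412). Celf1 did not pass in 6 alternatives and Tia1 in 1, the replicate block (edgeR adjusted p = 0.0519). Hnrnpd, which codes for the decay factor AUF1, had 245 ± 12.9 CPM with carnosine and 283 ± 28.9 CPM with saline and did not pass (edgeR adjusted p = 0.062), except without saline replicate 3 (edgeR adjusted p = 0.025).

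Of 10 genes for proteins that control ZFP36 or Regnase-1 after translation, 6 were lower and 2 higher, with a median log2 fold change of -0.14. The shares over all tested genes were 19.8% lower and 19.6% higher. Malt1, whose protease product cleaves Regnase-1, had 50.8 ± 0.639 CPM in carnosine libraries and 103 ± 2.70 CPM in saline libraries (log2 fold change -1.01 ± 0.039; edgeR adjusted p = 2.89e-06). The kinase gene Mapkapk2, whose product MK2 phosphorylates tristetraprolin, was slightly lower (-0.15 ± 0.023; edgeR adjusted p = 0.00213), and so was the phosphatase subunit gene Ppp2ca (-0.13 ± 0.020; edgeR adjusted p = 0.00232). The related kinase gene Mapkapk3 was higher at 166 ± 5.97 CPM with carnosine against 136 ± 1.49 CPM with saline (log2 fold change 0.29 ± 0.034; edgeR adjusted p = 0.000583).

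Most messages that ZFP36 proteins are known to bring to decay were lower. Of 22 such targets 19 were tested, 17 were lower and 1 was higher, with a median log2 fold change of -1.31. Of all tested genes 19.8% were lower and 19.6% higher. The targets were listed with earlier results of these data known, so their count is not independent support. Csf2, Ccl2, Il10, Il6 and Il1b had at most 20 counts in any carnosine library. The cytokine gene Tnf had 11.8, 12.5 and 12.97 CPM in carnosine libraries, against 60.4, 63.5 and 64.6 CPM in saline libraries (log2 fold change -2.34 ± 0.061; edgeR adjusted p = 5.07e-07), with no overlap. The carnosine level was 0.183 times the saline level for the chemokine gene Cxcl2 (edgeR adjusted p = 7.62e-07), 0.287 times for the growth factor gene Vegfa (edgeR adjusted p = 1.58e-06) and 0.569 times for the kinase gene Pim1 (edgeR adjusted p = 1.32e-06). Ccnd1 had 74.6 ± 3.81 CPM with carnosine and 67.3 ± 2.22 CPM with saline and did not pass (edgeR adjusted p = 0.0609). Myc was the 1 higher target, at 167 ± 3.58 CPM with carnosine against 104 ± 3.17 CPM with saline (log2 fold change 0.68 ± 0.034; edgeR adjusted p = 1.02e-05). The 10 tested targets with a nonamer in the annotated 3′ UTR were all lower (median log2 fold change -1.10). Of the 9 without one 7 were lower (median -1.31). That side is not free of AU-rich elements. The shorter heptamer TATTTAT was there in Il1b (3 copies), Il10 (4), Ier3 (4), Il6 (1) and Ccl3 (1), all lower. The lower genes Ccl2 and Vegfa had 0 copies in the 1 transcript searched for each, with short 3′ UTRs of 275 and 315 bases. Other transcripts of these genes, which may have longer 3′ UTRs, were not searched. The division therefore cannot tell whether the lower levels depend on AU-rich elements.

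Of 13 targets of Regnase-1 or Roquin, listed in the same way, 12 were tested. Of these 7 were lower and 2 higher, with a median log2 fold change of -0.81, beside 19.8% and 19.6% of all tested genes. Rel, which codes for an NF-kB subunit, had 83.4, 76.1 and 75.7 CPM in carnosine libraries, against 209, 216 and 208 CPM in saline libraries (log2 fold change -1.43 ± 0.044; edgeR adjusted p = 1.08e-06). Gata2, a stem cell transcription factor gene, had 197 ± 4.97 CPM with carnosine and 357 ± 4.18 CPM with saline (-0.86 ± 0.027; edgeR adjusted p = 1.17e-06), and Id1 had 14.3 ± 0.812 CPM with carnosine and 35.5 ± 0.859 CPM with saline (-1.31 ± 0.065; edgeR adjusted p = 9.33e-06). The 2 higher ones were Il12b at 2.97 ± 0.245 CPM with carnosine and 1.13 ± 0.342 CPM with saline and Irf4 at 17.7 ± 1.82 CPM with carnosine and 10.9 ± 1.62 CPM with saline. Tnf was in both target lists, with Il6 and Cxcl1.

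Zfp36 and Btg2 are themselves immediate early genes, which are switched on within minutes of a stimulus. Of 16 other immediate early genes 16 were lower and 0 higher, with a median log2 fold change of -1.13 and a range from -2.46 to -0.40. Of all tested genes 19.8% were lower and 19.6% higher, and this list too was made with earlier results known. Nr4a1 had 160 ± 3.80 CPM with carnosine and 881 ± 1.53 CPM with saline (log2 fold change -2.46 ± 0.025; edgeR adjusted p = 2.46e-08), and Egr1 had 341 ± 4.07 CPM with carnosine and 917 ± 24.4 CPM with saline (-1.42 ± 0.026; edgeR adjusted p = 1.5e-07). Junb (-1.32 ± 0.025; edgeR adjusted p = 1.5e-07) and Klf6 (-1.09 ± 0.025; edgeR adjusted p = 2.6e-07) lay between Zfp36 and Zc3h12a in size. Fos and Dusp1 were in this list and in that of the ZFP36 targets.

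**Figure D4:**
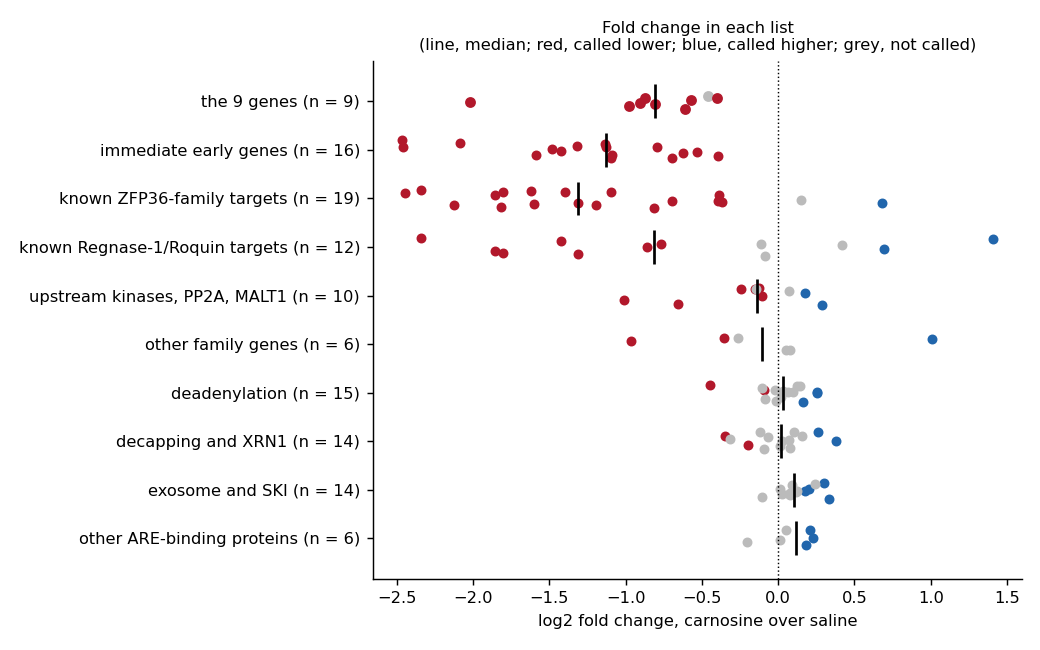
log2 fold change, carnosine over saline (x axis), of every tested gene in the 9 regulators and in 9 related lists (rows; dots are genes, the black line is the list's median, red passed as lower, blue as higher, grey did not pass). The 9 regulators (median -0.81), the immediate early genes (-1.13) and both target lists (-1.31 and -0.81) lie to the left of 0, and the deadenylation, decapping, exosome and other binding-protein rows lie around it.

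The genes whose pattern over the 6 libraries was closest to 3 of the members were found among 11410 genes of at least 5 CPM, by the root mean square difference of centred log2 CPM. For Zfp36 they were Angpt1 (0.020), Malt1 (0.030) and Nfil3 (0.032). For Btg2 they were the splicing factor gene Cwc25 (0.024), mt-Rnr1 (0.031) and Ccnl1 (0.034). For Zc3h12a they were Maff (0.036), the histone demethylase gene Kdm6b (0.045) and Dusp5 (0.065). Kdm6b had 123 ± 3.77 CPM with carnosine and 506 ± 4.74 CPM with saline, and Angpt1 had 119 ± 3.22 CPM with carnosine and 233 ± 4.22 CPM with saline (SD, n = 3 each). Since these genes were chosen for their likeness to members that were lower, their own direction was fixed by that choice.

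Across the transcriptome the share of lower genes differed with the number of AU-rich nonamers. Of genes with 0 copies in the 3′ UTR 19.7% of 11256 were lower and 21.9% higher, and of those with 1 copy 22.6% of 677 were lower and 23.8% higher, while 20.0% of all 12104 genes with a 3′ UTR were lower and 22.0% higher. Of the 171 genes with 2 or more copies 29.2% were lower and 15.8% higher. The medians of the log2 fold change were 0.02, 0.01 and -0.02 in the order of 0, 1 and 2 or more copies, and that of the last class was above 0 after correction for GC content and length and with tested FPKM values. Genes with 2 or more copies also had longer 3′ UTRs, with a median of 2653 bases against 892 for those with none. At 3000 bases or more, 21.6% of 74 genes with 2 or more copies were lower, against 22.6% of 1247 with none. In each band of shorter 3′ UTRs the share of lower genes was larger with 2 or more copies than with none. The bands were chosen after seeing the data, and the part of length was not tested.

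**Figure D5:**
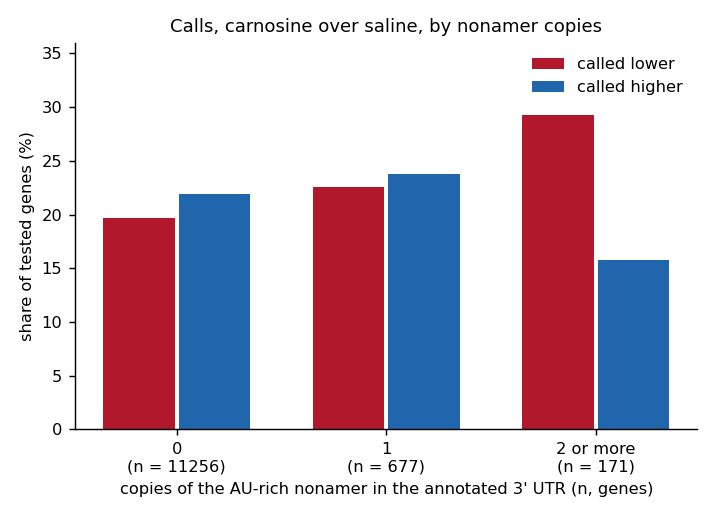
Share of tested genes (y axis, %, from 0) called lower (red) or higher (blue) in carnosine over saline, by the number of copies of the AU-rich nonamer in the annotated 3′ UTR (x axis, n genes below). The lower bars are 19.7%, 22.6% and 29.2% and the higher bars 21.9%, 23.8% and 15.8%, from 0 to 2 or more copies.

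The 250 bases before the annotated start were available from RefSeq (GRCm38.p6) for 8 of the 9 genes, and Zfp36l2 was the ninth. They were searched on both strands for TGACGTCA (the cAMP response element), TGANTCA (AP-1), the CArG box of serum response factor, the kappaB site and TATAAA. Among all 32841 RefSeq promoters the shares that held them were 1.55% for TGACGTCA, 6.75% for TGANTCA, 1.47% for a CArG box, 7.25% for a kappaB site and 12.4% for TATAAA. Btg2 held TGACGTCA at -166 from the start, Zfp36l1 and Rc3h1 held TGANTCA at -129 and -133, Zfp36 held a CArG box at -58 from a RefSeq start that lies inside the gene as the deposited table places it, and TATAAA was in Zfp36l1, Btg1 and Tob1. The kappaB motif was in none of the 8, and Tob2 and Zc3h12a held none of the searched letters. The promoters of Btg2 (chr1:134079156-134079405, minus strand) and Zc3h12a (chr4:125127882-125128131, minus strand) are shown as the case with the response element, in capitals, and the member with the widest difference. These letters show neither binding nor its absence.
Btg2: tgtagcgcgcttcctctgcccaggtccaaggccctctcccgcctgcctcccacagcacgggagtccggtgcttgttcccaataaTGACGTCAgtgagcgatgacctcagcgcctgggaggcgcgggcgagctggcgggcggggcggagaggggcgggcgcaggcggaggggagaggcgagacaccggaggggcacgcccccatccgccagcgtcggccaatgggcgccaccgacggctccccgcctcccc
Zc3h12a: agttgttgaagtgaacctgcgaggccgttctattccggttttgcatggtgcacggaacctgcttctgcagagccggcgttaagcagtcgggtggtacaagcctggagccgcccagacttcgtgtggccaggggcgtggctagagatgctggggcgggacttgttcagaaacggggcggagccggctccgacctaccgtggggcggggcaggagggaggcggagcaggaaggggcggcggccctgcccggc

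Total counts ran from 12730837 to 13651553 per carnosine library and from 12602067 to 16866534 per saline library, so the groups overlapped in depth. The sort kept cells that were negative for lineage markers, Flk2 and CD34 and positive for Sca-1 and c-Kit. The summed level of 10 stem cell markers was 479 to 495 CPM with carnosine and 490 to 502 CPM with saline, none of them at 0, and 5 of 9 tested were lower and 1 higher. Beside this count and the marker counts that follow, 19.8% of all tested genes were lower and 19.6% higher. Transcripts of 7 proteins that the sort selected against, mostly Flt3 and Cd34, summed to 511 to 526 CPM with carnosine and 556 to 583 CPM with saline. Megakaryocyte markers summed to 154 to 161 CPM with carnosine and 359 to 384 CPM with saline, with 6 of 6 tested lower. Erythroid markers summed to 617 to 640 CPM with carnosine and 474 to 481 CPM with saline, with 6 of 8 higher and 1 lower. Neutrophil markers summed to 21.4 to 27.0 CPM with carnosine and 44.8 to 46.2 CPM with saline (1 higher and 3 lower of 8), and those of monocytes to 404 to 428 CPM with carnosine and 397 to 534 CPM with saline (0 higher and 4 lower of 8). Markers of B and plasma cells summed to 498 to 797 CPM with carnosine and 485 to 500 CPM with saline (2 higher and 1 lower of 9), and those of T and NK cells to 126 to 136 CPM with carnosine and 91.6 to 93.7 CPM with saline (5 higher and 2 lower of 7). These sums do not tell a change in cell types from a change of expression within the sorted cells. The part of these marker differences in the levels of the 9 regulators was not tested.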

How the data were processed

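Poly-A RNA was made into stranded paired-end libraries, per the labels' protocols. The submitters' processing notes name CASAVA 1.8, HISAT2, StringTie, edgeR and GRCm38 without saying what each did. How strand and reads that fit several genes were treated is not stated in the sources. The deposited table holds whole-number counts and FPKM values per gene and library, per the file headers. Testing of the counts used edgeR 4.0.16 (R 4.3.3), after filterByExpr (15533 genes) and TMM scaling, with Benjamini-Hochberg adjustment at 0.05. SE is the log2 fold change divided by the square root of F. The procedure was also run on counts simulated from its own fitted means and dispersions, which cannot tell technical spread from spread between mice. Alternatives used DESeq2 1.42.0, limma 3.58.1 (limma-voom; limma-trend on log2(FPKM + 1)), other scalings and filters, GC and length correction, and left-out libraries. The median squared difference of libraries was 1.66 to 1.88 times sampling noise within groups, and all libraries were counted as separate samples. The 9 genes and all lists were chosen with earlier results of these data known. Up to 4 genes per list with the smallest p were named. For 3 members the 3 most similar genes were named. Any other gene was picked with its values in view. Marker lists are given as sums. Each 3′ UTR is that of 1 GENCODE M21 transcript per gene, the one with the longest coding sequence and then the longest 3′ UTR. PCR reads without molecular identifiers are not independent molecules.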

Additional observations from a re-analysis of the deposited data

How the results depend on the processing

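The log2 fold changes of the 9 genes kept their sign under all 15 alternatives, and 134 of 135 values kept their side of the threshold. The exception was Zfp36l1, whose leave-one-out values ran from -0.70 (without saline replicate 1) to -0.32 (without saline replicate 2). The replicate numbers did not pair the libraries (correlations of same-numbered deviations 0.0079, 0.027 and 0.021). With the replicate block 2552 genes were higher and 2679 lower, and 8 of the 9 genes were still lower. With limma-trend on FPKM 3387 genes were higher and 2156 lower of 13348, against 3038 and 3077. Of 643 values of other named genes 37 lost and 1 gained the call, with none reversed, and 41 of 510 list counts moved by over 1.5 times. All 18 family shares moved when CPM, which ignores length, replaced FPKM. Low counts limit the precision for Tob1, with 236 counts in its lowest library.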

Other observations

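For the shorter heptamer TATTTAT in the 3′ UTR, 26.1% of 1109 genes with 2 or more copies were lower and 20.2% higher. With 1 copy 21.5% of 2165 genes were lower and 22.4% higher, and with 0 copies 18.8% of 8830 were lower and 22.1% higher. The median 3′ UTR lengths of these classes were 2674, 1680.0 and 696 bases. Within bands of 3′ UTR length, chosen after seeing the data, 42.5% of the 40 genes with 2 or more nonamers and 500 to under 1500 bases were lower, against 19.8% of 3917 with none. From 1500 to under 3000 bases it was 29.2% of 48 against 21.9% of 2380. At 3000 bases or more it was 21.6% of 74 against 22.6% of 1247, and under 500 bases it was 3 of 9 genes against 17.1% of 3712. With 1 nonamer and under 500 bases, 9.26% of 54 genes were lower and 27.8% higher. No test was made of these shares.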
